A study of Mus musculus with 4 samples.

Results

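Fgf4, Fgf8, Fgf9 and Fgf17 encode the fibroblast growth factors (FGFs) that the apical ectodermal ridge of the limb bud secretes. These 4 genes were chosen by name, and all 4 were found among the 17712 genes measured. Forelimb RNA was sequenced from Shh null mouse embryos, which lack Sonic hedgehog function, and from their wild-type littermates, with 2 libraries per genotype. Both groups were of the outbred Swiss Webster stock with 33 to 35 somites, and neither carried a treatment. One label gives the age as E10.5 and another as E10.25 (days of embryonic development). The labels describe neither the null allele nor how many embryos went into a library. The design text calls the libraries of a group technical replicates, so that p-values here measure the spread between libraries, which may not include that between embryos.

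The apical ectodermal ridge is a strip of thickened epithelium along the distal rim of the limb bud. Its FGFs act on the mesenchyme beneath it through FGF receptors and the RAS and MAP kinase cascade, and keep those cells alive, dividing and growing out. In the mouse, Fgf8 is transcribed along the whole ridge, while Fgf4, Fgf9 and Fgf17 are transcribed in its posterior and distal portion. Sonic hedgehog from the posterior mesenchyme and the ridge FGFs sustain each other in a loop that runs through the BMP antagonist gremlin.

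The 4 ligands belong to different branches of the FGF family, with Fgf8 and Fgf17 in the same one. Coding bases aligned by codon were identical at 69.0% of 630 positions between Fgf8 and Fgf17, against 43.7% to 47.5% for the other 5 pairs. The longest run of coding bases shared without a mismatch was 20 bases between Fgf8 and Fgf17 and 9 to 12 bases in the other pairs, which bears on how far reads could be exchanged between members during counting. The stretch of 60 coding bases that is most alike in all 4 (GENCODE M21 transcripts Fgf4-201, Fgf8-201, Fgf9-201 and Fgf17-201, coding strand) is shown to let the branches be compared, with the 25 positions identical in all 4 in capitals:
Fgf4: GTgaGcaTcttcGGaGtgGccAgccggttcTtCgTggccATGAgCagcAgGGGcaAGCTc
Fgf8: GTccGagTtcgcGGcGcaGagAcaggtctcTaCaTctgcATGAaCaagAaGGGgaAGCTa
Fgf9: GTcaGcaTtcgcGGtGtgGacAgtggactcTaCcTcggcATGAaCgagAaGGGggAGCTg
Fgf17: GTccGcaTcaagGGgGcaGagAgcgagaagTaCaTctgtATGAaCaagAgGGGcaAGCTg
The stretch begins at coding base 364 in Fgf4, 376 in Fgf8, 313 in Fgf9 and 289 in Fgf17, counted from the A of the start codon.

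Fgf4 lies on chromosome 7 (144847367 to 144865243, plus strand, mm10), Fgf8 on chromosome 19 (45736798 to 45742915, minus strand), and Fgf9 (58070547 to 58112720, plus strand) and Fgf17 (70636203 to 70642268, minus strand) on chromosome 14. The only annotated gene that overlaps a member is the processed pseudogene Gm17109, on the strand opposite to Fgf9, which was not analysed here. Promoter sequences from RefSeq (GRCm38.p6) matched 2 of the 4 members, Fgf4 and Fgf9, and are shown because both genes were lower in the Shh null libraries. The 250 bases before each start follow, with capitals marking GGGCGG, the GC box to which Sp family factors bind:
Fgf4 (chr7:144861136-144861385, plus strand): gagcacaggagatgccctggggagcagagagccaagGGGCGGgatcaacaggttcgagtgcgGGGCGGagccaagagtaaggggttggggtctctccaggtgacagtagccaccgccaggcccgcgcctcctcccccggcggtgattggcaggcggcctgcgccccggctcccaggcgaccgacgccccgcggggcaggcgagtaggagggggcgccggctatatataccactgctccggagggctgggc
Fgf9 (chr14:58072436-58072685, plus strand): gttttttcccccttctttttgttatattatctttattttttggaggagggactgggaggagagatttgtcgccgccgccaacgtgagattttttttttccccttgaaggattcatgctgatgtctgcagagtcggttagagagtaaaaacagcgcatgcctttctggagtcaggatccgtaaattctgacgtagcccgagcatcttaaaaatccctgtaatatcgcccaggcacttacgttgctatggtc
The Fgf4 window held 2 GC boxes and had 71.2% G and C, and the Fgf9 window held 0 GC boxes and had 44.8%, against a median of 52.4% over all 32851 promoters. A GC box on either strand stood in 32.7% of them. Searched on both strands, neither window held the GLI letters GACCACCCA (0.225% of promoters) or their core CCACCC (28.1%), the TCF/LEF letters CTTTGA (13.8%) or the homeodomain letters TAATTA (4.84%). The E-box CANNTG (66.2%) was found once in the Fgf4 window. Core matches include any full GLI match, and absence from these windows says nothing of sites elsewhere.

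The libraries held 18456502 to 29620468 reads, and 1 read was worth 0.0351 to 0.0551 CPM (reads per 1000000 reads of the scaled library size). Shh itself was at 3.15 and 2.42 CPM in Shh null and 11.4 and 7.88 CPM in wild type, lower but not absent. The genotypes also differed in sex-linked transcripts. The 4 Y-linked genes Ddx3y, Eif2s3y, Uty and Kdm5d summed to 98 and 115 CPM in Shh null, against 313 and 274 CPM in wild type, and Xist was at 522 and 468 against 225 and 151 CPM. The sex make-up of the libraries and the genotype cannot be told apart. Of 6 limb mesenchyme markers (Prrx1, Prrx2, Tbx5, Twist1, Lhx2 and Lhx9), limma called 5 higher, against 1.24% of all tested genes. Prrx2 and Lhx2 were no longer called with Shh null 1 or Shh null 2 left out. Lhx9 was not called without Shh null 1, nor Twist1 without Shh null 2. The 6 markers summed to 1568 and 1535 CPM in Shh null and 1024 and 1070 CPM in wild type.

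All 4 ridge FGFs had lower values in both Shh null libraries than in either wild-type library. Fgf4 was nearly undetected in Shh null, Fgf8 stood at 30.2% and Fgf9 at 27.8% of their wild-type means, and Fgf17 was too weak to be tested. Groups did not overlap in the lower direction for 25% of all tested genes, so this ordering alone does not mark the members. Genes with at least 1 CPM in at least 2 libraries were tested with limma on log2(CPM + 1), and 1.24% of the 13224 tested genes were called lower at an adjusted p under 0.05. Fgf4, Fgf8 and Fgf9 were among them, and edgeR's quasi-likelihood test on read counts, which called 1.12% lower and 2.45% in either direction, called the same 3 lower. The filter passed 3 of the 4 members. Fgf8 and Fgf9 passed in every library, Fgf4 through the wild-type libraries alone, and Fgf17 did not pass.

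**Figure D1:**
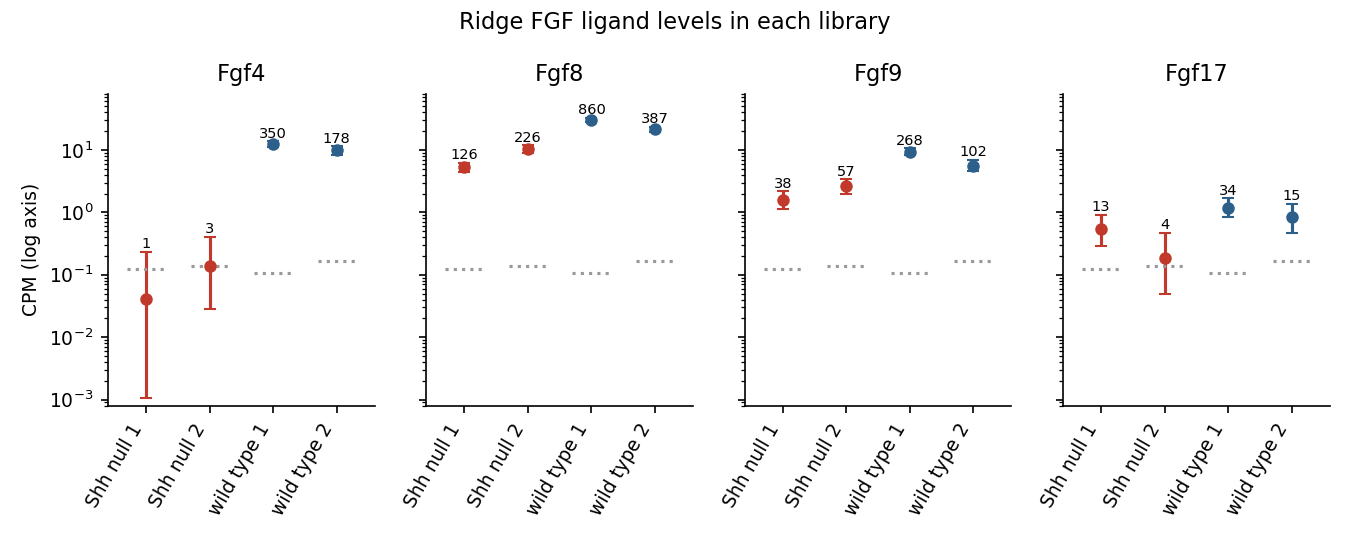
CPM of each ridge FGF in the 4 libraries on a log axis, with Shh null in red and wild type in blue. Bars are 95% exact counting intervals of 1 library, numbers are reads, and dotted lines mark 3 reads. Fgf4 sits at or below the 3-read line in both Shh null libraries and at 9.81 and 12.3 CPM in wild type.

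Fgf8, the first of the 4 to be transcribed in the mouse limb ectoderm, was counted with 126 and 226 reads in Shh null and 860 and 387 reads in wild type. These are 5.23 and 10.34 CPM in Shh null, against 30.2 and 21.3 CPM in wild type. The nearest libraries of the 2 genotypes, Shh null 2 and wild type 2, were still 2.06-fold apart, and the farthest 5.78-fold. Fgf8 fell by 1.65 ± 0.26 on the log2(CPM + 1) scale (SE; limma, adjusted p = 0.0126), and 19 tested genes had a more negative log2 fold change. The Shh null libraries differed from each other as well, with Fgf8 1.98-fold higher in Shh null 2 than in Shh null 1 (95% counting interval 1.58 to 2.48). Of 2875 genes with a similar level in these libraries, 0.661% were at least as far apart. Leaving out Shh null 1 ended the call (log2 fold change −1.22, adjusted p = 0.0888).

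Fgf4, which in the mouse ridge depends on Sonic hedgehog and gremlin, had the steepest change of the 4. Shh null held 1 and 3 of its reads and wild type 350 and 178. The levels were 0.0415 and 0.137 CPM in Shh null and 12.3 and 9.81 CPM in wild type, so that the Shh null libraries stood at 0.376% and 1.24% of the wild-type mean. Neither lies above the value of 3 reads in its library (0.124 and 0.137 CPM). The pooled ratio of wild type over Shh null, 130, has a 95% counting interval of 50.5 to 479. Fgf4 fell by 3.46 ± 0.19 on the log2(CPM + 1) scale (SE; limma, adjusted p = 1.95e-05). Since Fgf4 entered the test through the wild-type libraries alone, the fit with no filter is given as well, and it called Fgf4 too (limma, adjusted p = 0.000323). The added 1 CPM understates the change of a gene this low, and edgeR on read counts gave a log2 fold change of −6.90, a value that depends on its prior count.

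Fgf9, which encodes a ligand that signals to mesenchyme in several organs, was counted with 38 and 57 reads in Shh null and 268 and 102 reads in wild type. The levels were 1.58 and 2.61 CPM in Shh null, against 9.41 and 5.62 CPM in wild type. Within each genotype the libraries were spread to a like degree, 1.65-fold (95% counting interval 1.08 to 2.56) in Shh null and 1.67-fold (1.33 to 2.12) in wild type, while pairs of libraries across the genotypes were 2.16-fold to 5.97-fold apart. Fgf9 fell by 1.44 ± 0.25 on the log2(CPM + 1) scale (SE; limma, adjusted p = 0.0179). Leaving out Shh null 1 ended that call (log2 fold change −1.20, adjusted p = 0.204), and with the tested genes held fixed leaving out Shh null 2 ended it too (−1.69, adjusted p = 0.0652).

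Fgf17, which shares the receptor preferences of Fgf8, was near the limit of counting. It had 13 and 4 reads in Shh null and 34 and 15 reads in wild type, or 0.539 and 0.183 CPM against 1.19 and 0.826 CPM. The pooled wild-type reads were 2.84-fold those of Shh null (95% counting interval 1.61 to 5.26), while the nearest pair of libraries differed 1.53-fold. Only wild type 1 reached 1 CPM. Fitted with no filter, Fgf17 had a log2 fold change of −0.57 ± 0.17 on log2(CPM + 1) and was not called (SE; limma, adjusted p = 0.172), nor was it by edgeR without a filter (adjusted p = 0.191). In the authors' deposited table Fgf17 had a log2 fold change of −1.47 with a false discovery rate of 0.115, while Fgf4 stood at −6.91, Fgf8 at −1.73 and Fgf9 at −1.86, with rates of 3.29e-53, 3.43e-07 and 4.87e-06.

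The order of the ligands could be compared once each was divided by its exonic length. Per kilobase, wild-type levels were 19.1 ± 4.64 for Fgf8, 3.46 ± 0.55 for Fgf4, 1.62 ± 0.58 for Fgf9 and 0.598 ± 0.154 CPM for Fgf17 (SD, n = 2 each), and no 2 neighbours in this order overlapped between libraries. In Shh null the order was Fgf8 at 5.76 ± 2.68, Fgf9 at 0.45 ± 0.16, Fgf17 at 0.214 ± 0.149 and Fgf4 at 0.028 ± 0.0212 CPM per kilobase. By these means Fgf4 was last in Shh null and second in wild type. In Shh null 2 its place below Fgf17 rests on 3 reads against 4. Fgf9 in Shh null 1 (0.339) was close to Fgf17 in the same library (0.319), so these neighbours are not separated beyond their spread. The lengths of 1.35 kb for Fgf8, 3.195 kb for Fgf4, 4.649 kb for Fgf9 and 1.689 kb for Fgf17 join all annotated exons, and where only shorter transcripts are used the level per kilobase is understated.

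The ratios between members set Fgf4 apart. Fgf9 was at 0.302 and 0.252 of the Fgf8 CPM in Shh null and at 0.312 and 0.264 in wild type, so that the groups overlapped. Fgf4 was at 0.00794 and 0.0133 of the Fgf8 CPM in Shh null, against 0.407 and 0.460 in wild type, ratios whose means are 40.9-fold apart. With 2 libraries per genotype the exact two-sided permutation test over libraries has 0.333 as its smallest p, which the Fgf4 to Fgf8 ratio gave, while the Fgf9 to Fgf8 ratio gave 0.667. Fgf17 was at 0.103 and 0.0177 of the Fgf8 CPM in Shh null, on either side of 0.0395 and 0.0388 in wild type.

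Together the 4 ligands summed to 7.38 and 13.3 CPM in Shh null and 53.1 and 37.6 CPM in wild type. Fgf4 made up 0.562% and 1.03% of this sum in Shh null, against 23.1% and 26.1% in wild type. Fgf8 took the larger share in every library, with 70.8% and 77.9% in Shh null and 56.9% and 56.7% in wild type. In bulk tissue, fewer ridge cells and less RNA per ridge cell cannot be told apart. Of the ectoderm as a whole, 24 surface ectoderm markers, all tested and none at 0, summed to 766 and 761 CPM in Shh null and 659 and 625 CPM in wild type. Of these, limma and edgeR called 0 in either direction and DESeq2 called 1 higher. Before adjustment (limma p under 0.05), 0 were lower and 8 higher. In 15 of the 24 the groups did not overlap in the higher direction and in 1 in the lower. Over all tested genes these shares were 25.1% and 25%. Epcam, an epithelial adhesion gene named after its values were seen, was at 86.0 and 91.6 CPM in Shh null and 81.7 and 76.7 CPM in wild type. Krt15, a keratin gene, and Wnt6, a Wnt ligand gene of the ectoderm, had the largest fitted changes (log2 fold changes 0.97 and 0.71) and were not called by limma or edgeR. Wnt6 was the marker that DESeq2 called (adjusted p = 0.00908). Relative to the ectodermal sum, the ridge FGFs amounted to 0.964% and 1.74% in Shh null and 8.05% and 6.01% in wild type, 5.19-fold apart in their means (exact permutation p = 0.333, the smallest possible). Without that division, the means of the ridge FGF sum were 4.39-fold apart.

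**Figure D2:**
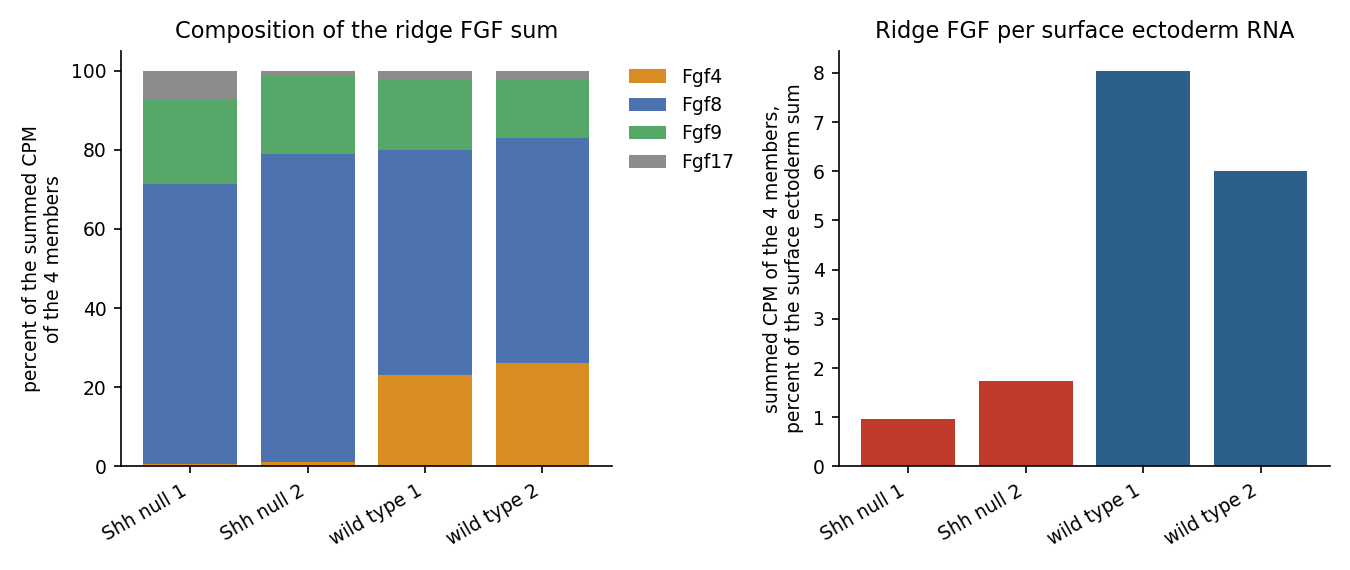
Left, share of each ligand in the summed CPM of the 4 ridge FGFs by library. Right, that sum as a percentage of the summed CPM of 24 surface ectoderm markers, with Shh null in red and wild type in blue. Fgf4 shrinks to 0.562% and 1.03% of the sum in Shh null, and the ratio on the right is 0.964% and 1.74% there against 8.05% and 6.01% in wild type.

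No other ridge gene compared here was called lower. Of 17 ridge and limb ectoderm factors chosen for comparison, 16 were tested, and limma called 3 higher, 0 lower and 13 in neither direction. edgeR and DESeq2 also called 0 lower, and 2 were lower and 5 higher before adjustment (limma p under 0.05). The called genes were Msx2, a BMP-responsive homeobox gene, at 64.5 and 71.2 CPM in Shh null and 26.1 and 25.0 CPM in wild type, the homeobox gene Dlx3, and Jag2, which encodes a Notch ligand of the ridge (38.8 and 36.5 against 25.3 and 25.5 CPM). Over all tested genes 1.24% were called higher. Sp8 and Sp6, zinc finger genes needed to form the ridge and upstream of Fgf8, are given here after their values were seen. Sp8 was at 22.0 and 29.4 CPM in Shh null and 27.4 and 24.1 CPM in wild type, and Sp6 at 13.1 and 16.9 against 14.8 and 13.9 CPM. Both pairs of groups overlapped, and the log2 fold changes were −0.02 and 0.05. Trp63, which marks stratified epithelium, was at 64.3 and 60.3 against 58.0 and 52.1 CPM and was not called (limma, adjusted p = 0.415). It was also named after its values were seen, as are the next 3 genes. Bmp2 (1.24 and 1.42 against 2.63 and 1.82 CPM) and Bmp4 (46.3 and 46.5 against 65.7 and 53.7 CPM) were lower without overlap. So was Cd44 (7.30 and 9.56 against 10.6 and 10.0 CPM), and none of the 3 was called. In 8 of the 16 tested factors the groups did not overlap in the higher direction. Over all tested genes the shares without overlap were 25% lower and 25.1% higher. Msx2 and Jag2 are also transcribed outside the ridge. With no filter or with quantile normalization Dlx3 and Jag2 were not called.

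**Figure D3:**
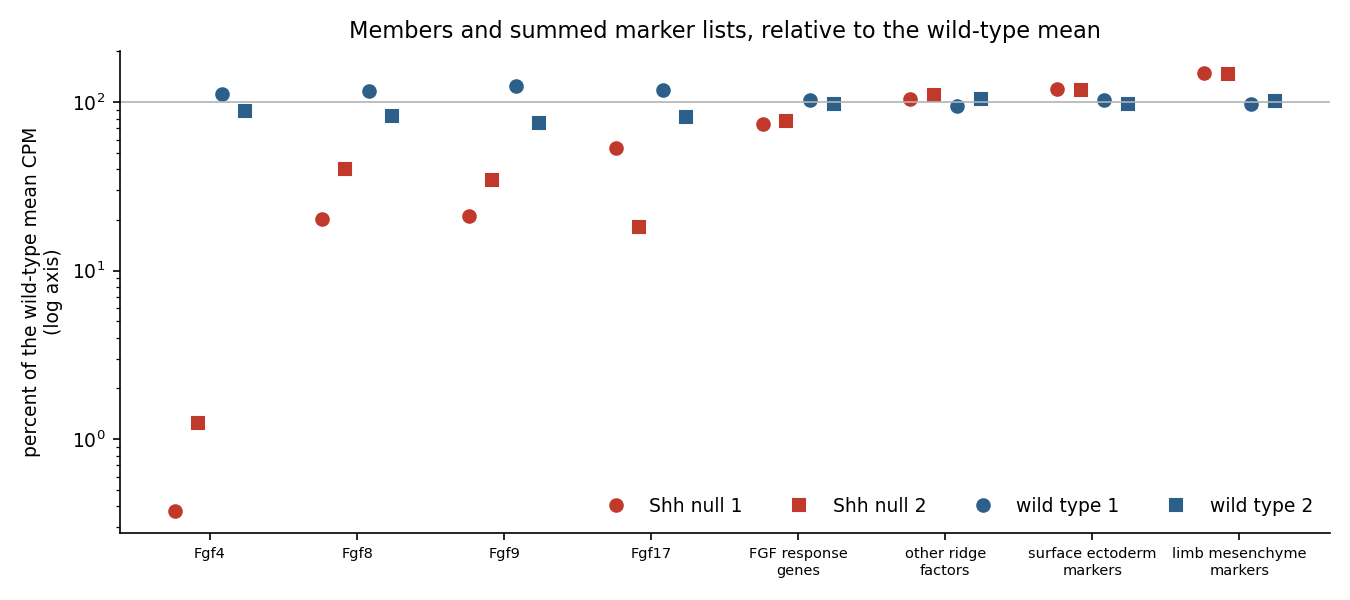
Level in each library as a percentage of the wild-type mean, on a log axis, for the 4 ridge FGFs and for the summed CPM of 4 gene lists. Red is Shh null, blue is wild type, circles are library 1 and squares library 2. Fgf8 lies at 20.3% and 40.1% and Fgf9 at 21% and 34.7% in Shh null. The surface ectoderm sum lies above the wild-type mean in both Shh null libraries. So does the sum of other ridge factors (528 and 559 CPM), but wild type 2 (526 CPM) does too and nearly equals Shh null 1. Gja1 alone gave 180 and 196 CPM of that sum in Shh null and 173 and 247 CPM in wild type.

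Among the remaining FGF ligand genes, a list that includes intracellular factors, 13 of 18 were analysed here and 4 tested. Of these, 1 was called lower (Fgf10), against 1.24% of all tested genes. Limma, edgeR and DESeq2 called 0 higher, and 1 was higher before adjustment (limma p under 0.05). Fgf10, the mesenchymal ligand that signals to the ridge, was at 14.2 and 14.6 CPM in Shh null and 24.8 and 30.2 CPM in wild type (limma, adjusted p = 0.0126). With Shh null 1 or Shh null 2 left out it was not called (log2 fold changes −0.86 and −0.90). Fgf13, which encodes an intracellular FGF homologous factor, was at 8.96 and 8.19 against 4.77 and 5.29 CPM and was not called (adjusted p = 0.0678). Fgf18, the close relative of Fgf8 and Fgf17, was at 1.74 and 1.92 CPM in Shh null and 1.90 and 1.49 CPM in wild type, with overlapping groups. Fgf12, another intracellular factor, was at 1.29 and 1.28 against 0.316 and 1.43 CPM. The ridge ligands made up 20.2% and 31.8% of the summed CPM of the members and this list in Shh null and 60.6% and 47.5% in wild type. That sum includes the intracellular factors. Of these, Fgf13 was higher in both Shh null libraries, which by itself lowers the ridge share there. The list as a whole summed to 29.15 and 28.5 CPM in Shh null and 34.5 and 41.5 CPM in wild type, with Fgf10 lower. This lower sum of the other ligands raises the ridge share in Shh null.

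No receptor was called lower by limma, edgeR or DESeq2, and 0 were lower before adjustment. Of 7 receptor and co-receptor genes, 4 were tested, and limma called 1 higher, against 1.24% of all tested genes. Fgfr3 was called higher, at 16.5 and 15.4 CPM in Shh null and 10.46 and 7.71 CPM in wild type (limma, adjusted p = 0.0484), and the other 3 were not called by limma. With no filter, or with quantile normalization, Fgfr3 was not called either. Fgfr2, whose epithelial form receives Fgf10 and whose mesenchymal form receives ridge FGFs, was at 117 and 110 against 88.3 and 84.0 CPM (limma, adjusted p = 0.0683), and DESeq2 called it higher (adjusted p = 0.0377). Among 19 tested adaptor and kinase genes of the cascade, such as Grb2 (12.1 and 12.2 against 9.79 and 9.75 CPM) and Map2k1 (85.1 and 89.9 against 101 and 107 CPM), limma, edgeR and DESeq2 called 0, with 1 lower and 0 higher before adjustment (limma p under 0.05). Heparan sulfate proteoglycans hold FGFs at the cell surface and help them bind their receptors. The list for them joined genes of the proteoglycans, of heparan sulfate enzymes and of FGF-binding proteins, and 22 were tested. Of these, limma called 1 higher, Sdc2 (88.2 and 91.5 against 59.9 and 62.3 CPM), and 0 lower, as did edgeR and DESeq2. Before adjustment (limma p under 0.05), 9 were higher and 0 lower. Gpc5 was at 15.2 and 15.5 against 9.37 and 10.4 CPM and was not called.

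Of the transcripts that FGF signalling induces, 3 were called lower. Of 13 response genes 12 were tested, of which limma called 3 lower, 0 higher and 9 in neither direction, and edgeR and DESeq2 also called 0 higher. Over all tested genes 1.24% were called lower. Before adjustment (limma p under 0.05), 8 were lower and 0 higher. This count is given without the share over all tested genes and only describes the list. The median log2 fold change of the list was −0.33, against −0.00048 over all tested genes. Spry4, a feedback inhibitor of the cascade, had the largest change, at 16.1 and 20.2 CPM in Shh null and 32.6 and 37.7 CPM in wild type (log2 fold change −0.92, limma adjusted p = 0.0126). The phosphatase genes Dusp4 (24.5 and 23.6 against 41.1 and 41.4 CPM) and Dusp6 (432 and 427 against 622 and 576 CPM) were the others called, Dusp6 not with no filter or with quantile normalization. Etv4, a transcription factor gene switched on by FGFs in limb mesenchyme and named after its values were seen, was at 34.5 and 39.5 against 52.5 and 47.4 CPM and was not called (adjusted p = 0.0978). In 9 of the 12 the groups did not overlap in the lower direction, against 25% over all tested genes. Without Shh null 1 the count of called response genes was 0, and without Shh null 2 it was 1. The list, like the others, was chosen with earlier results of these data known.

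**Figure D4:**
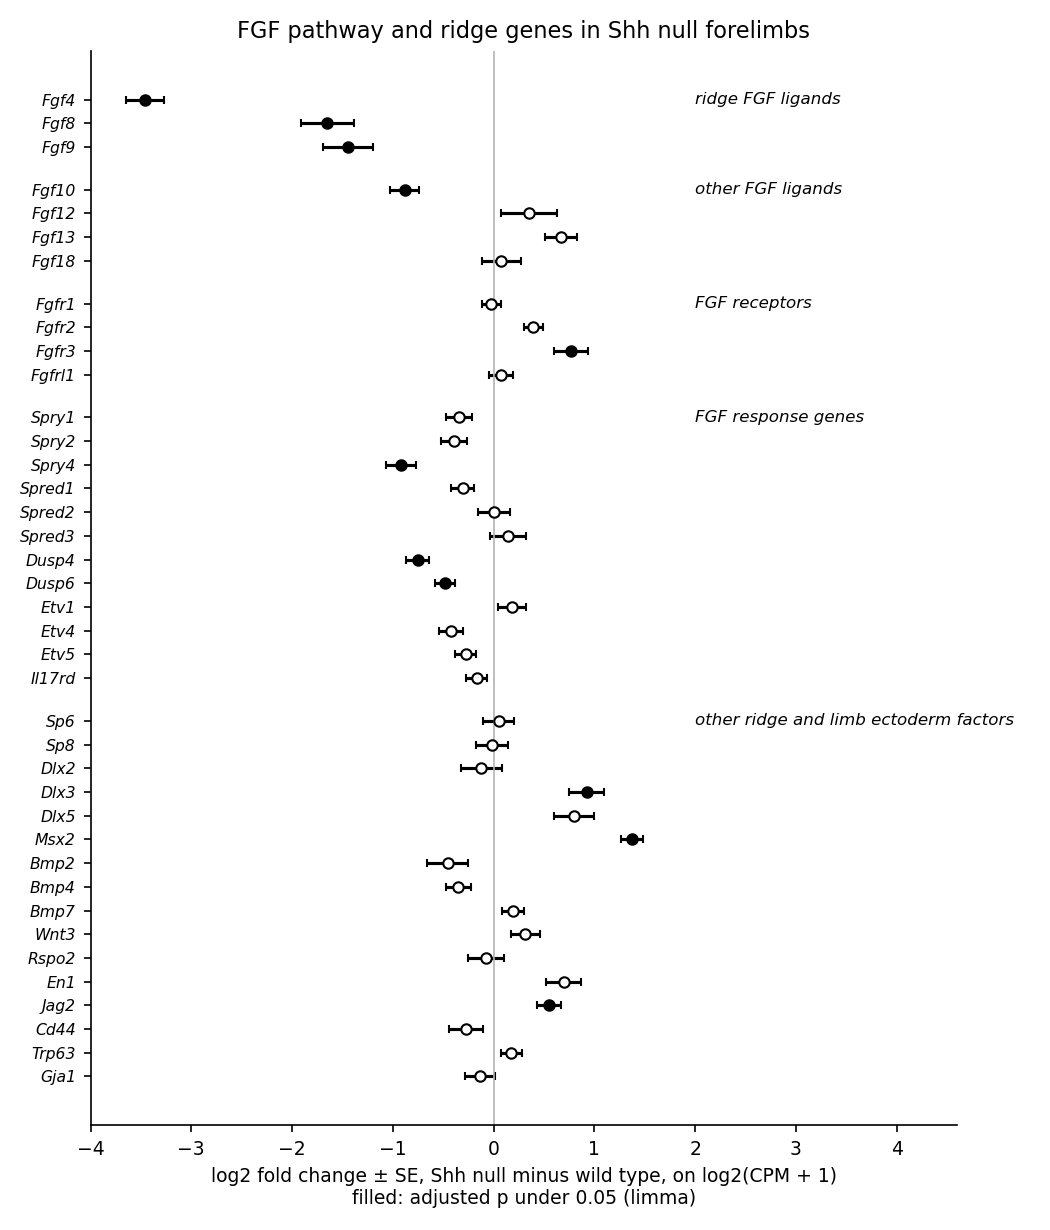
Fitted log2 fold change of Shh null minus wild type on log2(CPM + 1), with its SE, for the tested ridge FGFs, other FGF ligands, receptors, response genes and other ridge factors. Filled points passed an adjusted p of 0.05 in limma. Fgf4 (−3.46), Fgf8 (−1.65) and Fgf9 (−1.44) lie farther left than every other gene drawn, the nearest being Spry4 at −0.92.

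On the mesenchymal side of the loop, 11 genes were tested, and limma called 6 lower (Shh, Ptch1, Gli1, Grem1, Hand2 and Fgf10). Over all tested genes 1.24% were called lower. Shh is itself the gene that the genotype disrupts. Gli1 passed the filter through the wild-type libraries alone, at 0.249 and 0.366 CPM in Shh null. Limma, edgeR and DESeq2 called 0 higher, and 5 were not called. Before adjustment (limma p under 0.05), 1 was higher. Grem1, the gremlin gene, was at 5.56 and 6.04 CPM in Shh null and 37.9 and 33.6 CPM in wild type. Gli1 and Ptch1, which depend on Sonic hedgehog signalling, had log2 fold changes of −3.72 and −2.21, and Hand2 had one of −2.08. The BMP ligand genes were not called, Bmp4 at 46.3 and 46.5 against 65.7 and 53.7 CPM and Bmp2 at 1.24 and 1.42 against 2.63 and 1.82 CPM.

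The members' neighbours in the genome were also examined. Of 15 tested genes whose start lay within 250000 bases of a member's start, 1 was called, against 2.48% of all tested genes in either direction. It was Ccnd1, the cyclin D1 gene, 78539 bases to the right of Fgf4, at 93.9 and 83.7 CPM in Shh null and 203 and 200 CPM in wild type (log2 fold change −1.17 ± 0.10 SE, limma adjusted p = 0.000321). On the other side of Fgf4, Ano1, a chloride channel gene, was at 3.86 and 4.94 against 11.2 and 5.01 CPM and was not called (adjusted p = 0.254). Npm3, 6717 bases from Fgf8, was at 40.7 and 50.5 against 60.5 and 51.3 CPM. Fbxw4, on the opposite side of Fgf8, was at 13.5 and 11.9 against 11.1 and 13.4 CPM. Neither was called. Zdhhc20 beside Fgf9 (log2 fold change 0.0027) and Fam160b2 and Dok2 beside Fgf17 (0.18 and 0.10) were not called either.

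Patterns over the 4 libraries were compared by Euclidean distance between log2(CPM + 1) values centred on each gene's mean. The gene nearest to Fgf8 was Fgf9, at a distance of 0.359, with Uty (0.363), Kdm5d (0.517) and AI506816 (0.534) also close. Genes with patterns close to that of Fgf9 were Kdm5d (0.307), Uty (0.343), Fgf8 (0.359) and Naaa (0.387). Uty and Kdm5d are Y-linked. Fgf9 lay nearer to both than to Fgf8, while Fgf8 lay nearest to Fgf9, with Uty at almost the same distance. The sum of the 4 ridge FGFs was 7.53% and 11.5% of the Y-linked sum in Shh null and 17.0% and 13.7% in wild type, and the part of sex in the ligands' levels was not tested. Fgf4 was nearest to Gli1 (0.317), and also close to Hoxa13 (0.636), Osr2 (0.912) and Mamdc2 (1.0), and its distances to Fgf8 (1.89) and Fgf9 (2.05) were larger. Fgf4, Gli1, Hoxa13, Osr2 and Mamdc2 were all below 1 CPM in both Shh null libraries and passed the filter through wild type alone. With Shh null values this low, these distances mostly follow the wild-type levels, and nothing further is drawn from them. With 2 libraries per genotype, many genes that differ by a similar amount have similar patterns.

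Fgf8 is also transcribed in tissues outside the limb, such as the tail bud, and these could enter a dissection. Of 8 markers of such tissues, 3 were analysed here (T, Tbx6 and Msgn1), 0 passed the filter, and they summed to 0.788 and 1.46 CPM in Shh null and 2.18 and 1.65 CPM in wild type. Most of this difference came from T, the tail bud gene, at 0.373 and 0.229 against 1.26 and 0.882 CPM. Its part in the Fgf8 and Fgf17 values was not tested. Endothelial markers summed to 202 and 206 CPM in Shh null and 174 and 228 CPM in wild type, neural and neural crest markers to 20.2 and 18.0 against 20.7 and 18.2 CPM, and muscle precursor markers to 109 and 110 against 92.2 and 98.8 CPM. Of the 6, 4 and 3 tested genes of these lists, limma, edgeR and DESeq2 called 0, with 1 muscle precursor gene higher before adjustment (limma p under 0.05). Macrophage markers summed to 28.7 and 26.6 against 16.7 and 14.5 CPM, with 1 of 5 tested genes called higher, the chemokine receptor gene Cx3cr1, and all 5 higher before adjustment. Cx3cr1 was not called with no filter, with quantile normalization or without either Shh null library. The part of these cells in the ligands' values was not tested. Erythroid markers, of which the same tools called 0 of 6 (0 before adjustment), summed to 3728 and 6333 CPM in Shh null and 10980 and 2941 CPM in wild type, with overlapping groups.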

How the data were processed

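Forelimb RNA was extracted with TRIzol, per the labels' protocols. Per the submitters' processing notes, the authors' tools were HTSeq 0.5.4p5, TopHat2 2.0.9, edgeR 3.4.2 and SAMtools, and the build mm10. Which annotation and strand setting were used is not given in the sources used here. The authors deposited a normalized signal per gene and library. In each library all values were multiples of the value of 1 read (100% whole within 0.001 reads), and TMM factors recomputed from the recovered reads matched the scale, so values are called CPM. The authors' deposited log2 fold changes, p-values and false discovery rates are quoted only by that name.

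Log2(CPM + 1) of the 13224 genes with at least 1 CPM in at least 2 libraries was fitted on genotype with limma 3.58.1 (intensity trend, R 4.3.3) and adjusted by the Benjamini-Hochberg method. As alternatives, the reads so recovered were tested with DESeq2 1.42.0 and edgeR 4.0.16. Counts before adjustment are given without a share over all tested genes and only describe the lists. Counting intervals (95%, exact) cover counting error only. The steps were tested on simulated data. Coding bases were aligned with MAFFT 7.526 through their codons. Members, 16 gene lists (178 genes) and comparisons were chosen with earlier results of these data known. Named are the members, Shh, the up to 4 called genes of a list with the largest change (the top 2 where fewer than 2 were called), FGF ligands with at least 1 CPM in 2 libraries, nearest tested neighbours, and the 5 most alike genes per tested member without predicted genes. Genes outside this rule are marked in the text where they occur, or complete a count. Some genes that this rule names are not reported here.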

Additional observations from a re-analysis of the deposited data

How the results depend on the processing

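Fgf4, Fgf8 and Fgf9 kept their direction under every alternative run. Fgf4 also kept its call, but it has no test without a wild-type library under the filter. With the tested genes held fixed, an alternative chosen after seeing the data, its log2 fold change lay between −3.61 and −3.31 when 1 library was left out. The size of its change rests on the scale, at −5.06 with a pseudocount of 0.25, −6.90 in edgeR and −6.99 in DESeq2, against −3.46. Left-out libraries gave −2.08 to −1.22 for Fgf8 and −1.77 to −1.12 for Fgf9, with adjusted p (limma) up to 0.114 for Fgf8 and 0.232 for Fgf9, both without Shh null 1; with the tested genes held fixed, Fgf9 was not called at −1.20 without Shh null 1 and −1.69 without Shh null 2. With no filter on low values Fgf9 was not called (log2 fold change −1.44, adjusted p = 0.0586). Fgf17 moved to −1.09 with a pseudocount of 0.25 and to −1.47 in edgeR without a filter, against −0.57, because these scales compress low values less; left-out libraries gave −0.76 to −0.38. The log2 difference of the ridge FGF sum per ectodermal sum was −2.42, between −2.85 and −2.00 with 1 library left out, and −3.19 without Fgf8.

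Over all genes, 328 were called (164 higher, 164 lower), 526 (253, 273) by DESeq2, 491 (266, 225) by edgeR without a filter and 170 (79, 91) with no filter in limma. With 1 library left out the counts ran from 61 to 749 (16 to 373 higher, 45 to 376 lower), and called FGF response genes from 0 to 4. With Shh null 1 or Shh null 2 left out, Shh, Fgf10, Dusp4, Dusp6, Sdc2, Fgfr3, Dlx3 and Jag2 kept their direction but were no longer called. The replicate block gave 396 calls, changed no member's call and ended that of Dusp6 (adjusted p = 0.07). Same-numbered libraries share only a number (correlation of deviations −0.203). The crossed pairing, tried for that reason, gave 1386 calls (641 higher, 745 lower) and 7 response genes. With 1 library left out, log2 fold changes that were not called with all 4 reversed in part: Hbb-bh1 ranged from −1.32 to 0.54 (0.077 without Shh null 1), Pax3 from −0.025 to 0.565 and Tek from −0.041 to 0.289. The cause of these changes was not tested, unless stated. Depth limits Fgf17 and the Shh null values of Fgf4.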
